A study of Mus musculus with 6 samples.

Results

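Imprinted genes are expressed mainly or only from the copy inherited from one parent. The 34 genes examined here are listed by symbol and include members of the H19-Igf2, Dlk1-Meg3, Kcnq1ot1, Igf2r-Airn, Snrpn-Ndn, Peg3, Peg10-Sgce, Peg13-Trappc9 and Gnas domains and several imprinted genes that stand alone. Of these, 32 were found by symbol among the 31053 genes in the count tables, and the other two, Rian and Peg13, were not used here. Their RNA was followed in germ cells and gonadal somatic cells of the embryo and in gonadal somatic cells made in culture.

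At imprinted domains, DNA methylation set in the egg or sperm marks one parental copy of a control region, and the mark is kept in body cells through development. Many domains pair a protein gene with a long noncoding RNA that is read from the opposite parental copy. In primordial germ cells the marks are erased around the time these cells settle in the gonad, so that new ones can be laid down according to the sex of the embryo. The counts give the summed RNA of both copies and do not tell the parental copies apart.

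Single-cell RNA counts (10x Chromium, read at the 3′ end of transcripts) came from 1 library each of XX gonads from ICR mouse embryos at 5 stages of embryonic days (E10.5, E11.5, E12.5, E13.5 and E14.5), and from 1 library of gonad somatic cells derived from embryonic stem (ES) cells of 129svj x C57BL/6J background (Induced D6). The induced cells grew as aggregates for 6 days in 3 steps of 2 days. The first step held EGF, BMP4 and CHIR, the second added retinoic acid, SHH and PD0325901 to EGF and BMP4 in place of CHIR, and the last held FGF9 and BMP4. No transgene or allele is given for any group, and how many embryos went into a library is not given in the sources used here. Strain and culture differ together between Induced D6 and the embryo and cannot be told apart. E13.5 and E14.5 are numbered apart from the other libraries in the sample list. Stage therefore cannot be told apart from any other difference between these sets of libraries. Every interval below is a 95% interval that covers counting error only, since no group has a second library.

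Between 2661 and 7067 cells per library passed the filters. Clusters were named from marker genes, with imprinted genes kept out of the clustering, so the names "germ-cell-like" and "gonadal somatic" rest on markers alone. Germ-cell-like cells numbered 311, 581, 1395 and 1160 from E11.5 to E14.5, with a median of 21703, 17168, 13834 and 9832 UMIs (unique molecules counted) per cell. The E11.5 class includes 1 cluster of 19 cells that carried the pluripotent name. At E10.5 only 18 germ-cell-like cells were found, and they enter no comparison. Gonadal somatic cells, the sum of stroma-like cells with those of the coelomic epithelium and the supporting lineage (both -like), numbered 2162, 2219, 2838 and 2708 from E11.5 to E14.5 with a median of 10796, 9138, 7925 and 6668 UMIs, and 5259 in Induced D6 with 6373. At E13.5 the sum and its epithelium also held 385 cells of a mixed name, supporting or coelomic. In Induced D6, 1789 of the 7067 cells took no name and were left out of the class. At E10.5 the class was a single cluster of 500 epithelial cells, named for the supporting and coelomic types at once. The 8 germ cell genes Dazl, Ddx4, Dppa3, Pou5f1, Dnd1, Mael, Stra8 and Sycp3 summed to 2763 to 3958 CPM (counts scaled to 1000000 per class sum) in germ-cell-like cells and to 6.45 to 82.8 CPM in gonadal somatic cells, and no germ-cell-like cluster was found in Induced D6. Any pair of libraries shared 17 to 114 cell barcodes, at most 2.44% of the smaller library.

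The members most raised in germ cells came from 1 domain, that of the noncoding RNA Kcnq1ot1 on distal chromosome 7. The start regions of 3 of its protein genes and of Kcnq1ot1 itself are shown first, since their RNA stood on opposite sides of the somatic level in germ cells. Each is 300 bases, from 250 before to 50 after the first RefSeq start listed (GRCm38.p6), written 5′ to 3′ on the gene's strand, with each CpG, the pair of letters that carries DNA methylation, in capitals. For Phlda2 this start lies inside the longer GENCODE gene model.
Phlda2 (chr7:143502475-143502774, minus strand): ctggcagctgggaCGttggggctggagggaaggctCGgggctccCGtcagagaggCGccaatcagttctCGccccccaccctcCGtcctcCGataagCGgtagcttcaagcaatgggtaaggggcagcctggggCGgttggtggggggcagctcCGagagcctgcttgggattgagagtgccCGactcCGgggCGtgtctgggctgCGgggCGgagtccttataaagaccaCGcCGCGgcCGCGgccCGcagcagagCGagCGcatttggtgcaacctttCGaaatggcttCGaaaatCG
Slc22a18 (chr7:143473539-143473838, plus strand): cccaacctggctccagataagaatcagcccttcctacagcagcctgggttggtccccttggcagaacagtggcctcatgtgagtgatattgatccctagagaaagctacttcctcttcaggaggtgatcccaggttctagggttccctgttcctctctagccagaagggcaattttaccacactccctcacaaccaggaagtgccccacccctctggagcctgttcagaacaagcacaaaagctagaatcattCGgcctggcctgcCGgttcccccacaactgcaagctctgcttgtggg
Ascl2 (chr7:142969215-142969514, minus strand): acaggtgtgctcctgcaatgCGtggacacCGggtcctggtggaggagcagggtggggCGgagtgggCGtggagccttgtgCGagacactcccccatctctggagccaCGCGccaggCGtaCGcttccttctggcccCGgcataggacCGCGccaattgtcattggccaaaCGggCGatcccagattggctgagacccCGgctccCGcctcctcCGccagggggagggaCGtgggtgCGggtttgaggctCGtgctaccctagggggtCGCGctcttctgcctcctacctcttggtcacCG
Kcnq1ot1 (chr7:143296498-143296797, minus strand): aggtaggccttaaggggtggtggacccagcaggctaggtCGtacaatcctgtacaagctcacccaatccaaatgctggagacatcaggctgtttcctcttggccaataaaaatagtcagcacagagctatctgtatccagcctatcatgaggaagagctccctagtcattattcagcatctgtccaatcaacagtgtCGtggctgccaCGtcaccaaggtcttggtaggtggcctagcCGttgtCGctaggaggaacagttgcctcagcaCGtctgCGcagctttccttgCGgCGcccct

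Phlda2 has 26 CpG pairs in this window and Ascl2 23, against a median of 7 over 27025 promoters of the same length, while Kcnq1ot1 has 9 and Slc22a18 has 2. Over the 27 members found in the files and with a window in the RefSeq table the median was 15. The letters TGCCGC, the core of the motif read by the imprint-keeping protein ZFP57, were searched on both strands and stood in 7 of the 27 windows (25.9%; Grb10, Meg3, Nap1l5, Nnat, Plagl1, Zdbf2 and Zim1) and in 11.6% of all 27025. The motif holds 1 CpG, so it is not independent of the CpG count. Some RefSeq windows lie far from the GENCODE gene model. That of Zdbf2 (chr1:63200108-63200407) stands before a model that starts at 63273265. The Snrpn window (chr7:60450128-60450427) stands beyond a minus-strand model that ends at 60140219. Control regions often lie outside a gene's start, and neither DNA methylation nor protein binding was measured here.

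In the Kcnq1ot1 domain, Phlda2, which encodes a growth-restraining protein best known from the placenta (chr7:143501545-143503150 in GENCODE vM21, GRCm38, as are the gene positions that follow), stood at 279.6, 383, 165 and 14.1 CPM in germ-cell-like cells and 3.43, 4.42, 6.10 and 1.38 CPM in gonadal somatic cells (in this and the next paragraphs in the order E11.5, E12.5, E13.5, E14.5). It was the member with the largest fold excess in germ-cell-like cells at E11.5 and E12.5 among those with at least 10 CPM, 81.4-fold (66.7 to 100.4) and 86.8-fold (71.5 to 106). Its germ level was highest at E12.5 and lowest at E14.5, where the excess was 10.2-fold (6.80 to 15.7). After each cell was thinned to 3000 UMIs, 49.5%, 62.8%, 32.3% and 2.87% of germ-cell-like cells held a Phlda2 UMI (85.9%, 94.8%, 66.7% and 5.60% unthinned). None of the 77 thinned erythroid-like cells at E11.5 held one, which allows a share of up to 3.90%. In thinned gonadal somatic cells the shares were 0.981%, 1.37%, 1.67% and 0.553%. At E14.5 the RNA was uneven within the class: the 4 germ-cell-like clusters ran from 0 to 71.6 CPM with a median of 1.27. Over the same stages the 8 pluripotency markers used for naming (Pou5f1, Sox2, Nanog and others) summed to 2067, 1512, 642 and 84.4 CPM in germ-cell-like cells, and their part in the Phlda2 level was not tested.

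Slc22a18, a membrane transporter beside Phlda2 (chr7:143473736-143499334), was also highest at E12.5 and lowest at E14.5. It stood at 14.2, 29.7, 24.0 and 6.98 CPM in germ-cell-like cells and 0.337, 0.505, 0.682 and 0.429 CPM in gonadal somatic cells. Ascl2, a transcription factor needed in the placenta (chr7:142966829-142969264), stood at 4.87, 8.70, 11.96 and 4.53 CPM in germ-cell-like cells and 0.0673, 0.126, 0.417 and 0.143 CPM in gonadal somatic cells. These somatic values rest on 9 to 18 counts for Slc22a18 and on 2 to 11 for Ascl2, so the germ-cell-like excess of Ascl2 at E11.5 carried a wide interval, 72.4-fold (18.5 to 623). Kcnq1ot1 (chr7:143203458-143296549), the RNA whose reading silences neighbours on the same copy, went the other way at 60.1, 43.9, 58.6 and 111 CPM in germ-cell-like cells and 202, 211, 121 and 156 CPM in gonadal somatic cells. Its germ-cell-like level lay under the somatic level at each of the 4 stages and was closest to it at E14.5. Cd81, a membrane protein gene between Ascl2 and Kcnq1ot1, was low in germ-cell-like cells as well, at 18.1, 21.7, 44.3 and 37.4 CPM in germ-cell-like cells and 491, 423, 297 and 284 CPM in gonadal somatic cells.

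**Figure D1:**
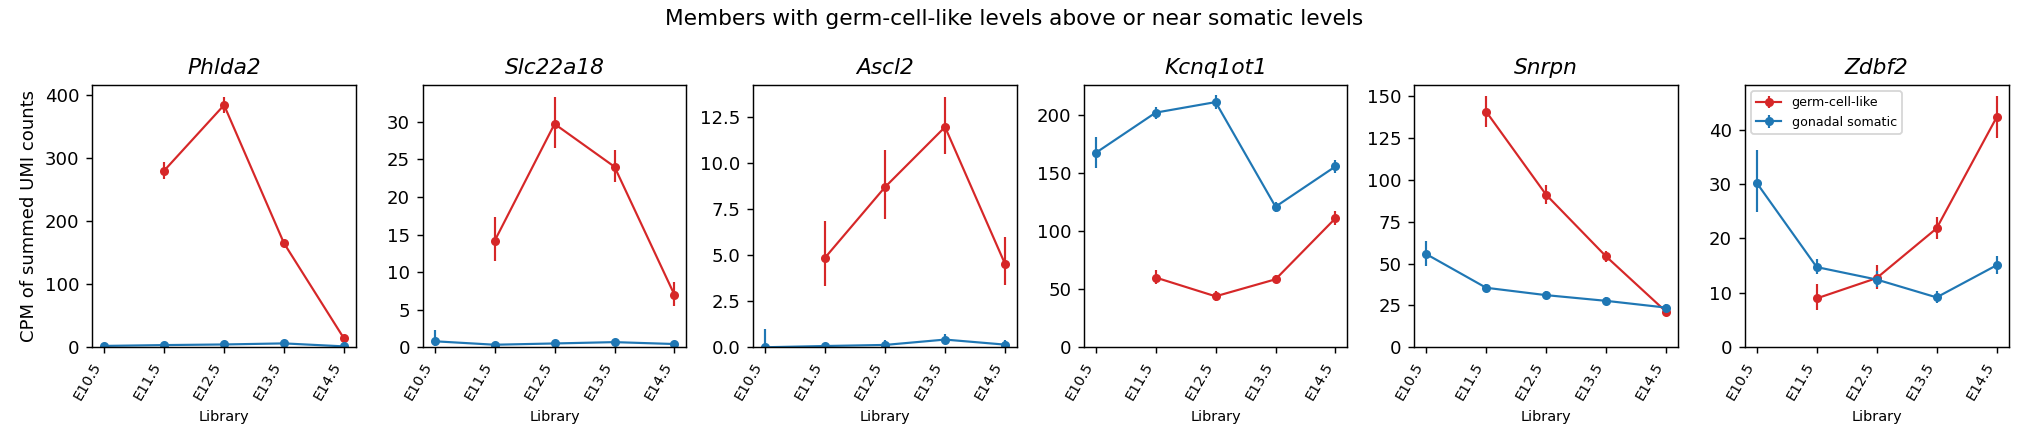
Level (CPM of summed UMI counts, y axis, from 0) of 6 imprinted genes by library (x axis) in germ-cell-like cells (red) and gonadal somatic cells (blue), with bars for the exact Poisson 95% interval. Phlda2, Slc22a18 and Ascl2 stood above the somatic level at all 4 stages with both classes, Kcnq1ot1 below it, Snrpn came down to 21.3 CPM and Zdbf2 reached 42.2 CPM in germ-cell-like cells.

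H19 and Igf2 share enhancers and are read from opposite copies, H19 from the maternal and Igf2, a growth factor gene, from the paternal one. H19 (chr7:142575529-142578143) stood at 19.5, 22.7, 60.8 and 68.1 CPM in germ-cell-like cells and 789, 903, 1029.7 and 1257 CPM in gonadal somatic cells. It was low in germ-cell-like cells at each stage, with the higher values at E13.5 and E14.5. As a share of the somatic level it was 2.47%, 2.51%, 5.91% and 5.42%. These values are read against a gauge of free RNA further on, where H19 lay under the highest gauge gene at E11.5 and E13.5 and above it at E12.5 and E14.5. Igf2 stood at 0.304, 1.47, 1.53 and 1.45 CPM in germ-cell-like cells and 16.6, 24.7, 19.97 and 20.2 CPM in gonadal somatic cells. In GENCODE vM21, 62.8% of the exonic bases of Igf2 lie in another annotated gene of the same strand, Gm49394, which held 0 counts in each class, so reads in shared bases may have gone uncounted and the Igf2 level is uncertain.

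In the Dlk1-Meg3 domain, the paternally read Dlk1, a Notch-related membrane protein gene (chr12:109452823-109463336), stood at 0.457, 4.21, 22.8 and 19.5 CPM in germ-cell-like cells and 209, 176, 207 and 272 CPM in gonadal somatic cells. The E11.5 germ value rests on 3 counts. Meg3 (chr12:109541001-109571726), a maternally read noncoding RNA, moved the other way in germ-cell-like cells: it stood at 49.0, 35.1, 19.1 and 12.51 CPM in germ-cell-like cells and 470.2, 410.0, 326 and 558 CPM in gonadal somatic cells. Germ-cell-like levels of Dlk1 were thus higher at the later stages while those of Meg3 were lower, and neither reached its somatic level. Against the gauge of free RNA further on, Dlk1 at E11.5 and Meg3 at E13.5 and E14.5 lay under the highest gauge gene. Those levels were not detectable above free RNA. Mirg, a microRNA host RNA downstream of Meg3, was low throughout, at 2.74, 1.66, 1.24 and 2.45 CPM in germ-cell-like cells and 4.17, 4.33, 4.93 and 7.58 CPM in gonadal somatic cells.

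In the Snrpn-Ndn domain, the paternally read splicing protein gene Snrpn also had more RNA in germ-cell-like than in somatic cells at the early stages, at 141, 91.1, 54.3 and 21.3 CPM in germ-cell-like cells and 35.5, 31.1, 27.7 and 23.7 CPM in gonadal somatic cells. Its germ-cell-like level was lower at each later stage and met the somatic level at E14.5, where the ratio was 0.899-fold (0.766 to 1.05). In the annotation 27.3% of the exonic bases of Snrpn are shared with other genes of the same strand. Ndn, a growth-restraining protein gene further along the domain, showed the opposite balance, at 27.2, 17.5, 16.7 and 6.53 CPM in germ-cell-like cells and 146, 138, 87.1 and 95.7 CPM in gonadal somatic cells. The ubiquitin ligase gene Ube3a, imprinted in neurons, lay within 2-fold in both classes, at 129, 111, 170.3 and 215 CPM in germ-cell-like cells and 167, 135, 117 and 129 CPM in gonadal somatic cells. Magel2, a relative of Ndn, was under 10 CPM in each class sum, at 0.198 to 0.304 CPM in germ-cell-like and 1.60 to 3.07 CPM in gonadal somatic cells over these stages.

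In the Peg3 domain, the zinc finger gene Peg3 stood at 175, 163, 103 and 65.4 CPM in germ-cell-like cells and 900.5, 774, 597 and 540.2 CPM in gonadal somatic cells. Both classes were lower at E14.5 than at E11.5, and germ-cell-like cells kept 19.4%, 21.1%, 17.3% and 12.1% of the somatic level from E11.5 to E14.5. Usp29, a deubiquitinase gene read away from the Peg3 start, stood at 14.2, 15.6, 5.34 and 1.72 CPM in germ-cell-like cells and 46.5, 48.3, 35.4 and 30.1 CPM in gonadal somatic cells, and the zinc finger gene Zim1 at 0.761, 0.685, 2.82 and 1.81 CPM in germ-cell-like cells and 27.0, 19.1, 35.0 and 34.4 CPM in gonadal somatic cells.

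In the Peg10-Sgce domain, the retrotransposon-derived Peg10 stood at 0.152, 0.782, 2.77 and 3.26 CPM in germ-cell-like cells and 25.6, 24.6, 85.4 and 94.0 CPM in gonadal somatic cells, and Sgce, a sarcoglycan gene that starts beside it, at 0.304, 0.0978, 0.643 and 1.09 CPM in germ-cell-like cells and 40.9, 38.3, 35.3 and 37.3 CPM in gonadal somatic cells. The germ-cell-like values of both rest on 1 to 56 counts. Peg10 was thus higher in somatic cells at E13.5 and E14.5 than before, while Sgce held 35.3 to 40.9 CPM. Ppp1r9a, a phosphatase-binding protein gene, stood at 4.87, 4.89, 7.91 and 14.1 CPM in germ-cell-like cells and 42.8, 49.1, 45.6 and 39.6 CPM in gonadal somatic cells. Asb4, a ubiquitin ligase adaptor gene, behaved unlike its neighbours, at 7.92, 19.3, 20.5 and 1.09 CPM in germ-cell-like cells and 46.8, 15.6, 9.21 and 6.34 CPM in gonadal somatic cells. It was lower in somatic cells at each later stage and passed under the germ-cell-like level at E12.5 and E13.5.

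Igf2r, which encodes the receptor that clears IGF2, was near equal in both classes, at 24.8, 22.9, 35.0 and 33.2 CPM in germ-cell-like cells and 33.0, 37.1, 32.0 and 37.7 CPM in gonadal somatic cells. Airn, the noncoding RNA that overlaps Igf2r and silences it on the paternal copy, was nearly missing from germ-cell-like cells, at 0.152, 0, 0.247 and 0.544 CPM in germ-cell-like cells and 16.6, 17.1, 16.3 and 21.4 CPM in gonadal somatic cells. These germ-cell-like values rest on 1, 0, 5 and 6 counts, and the 0 at E12.5 allows up to 0.293 CPM (3 counts). Igf2r RNA thus stood near its somatic level in cells with little or no counted Airn RNA.

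Among the genes that stand alone, Mest, a hydrolase-like gene, stood at 26.3, 16.9, 23.2 and 17.1 CPM in germ-cell-like cells and 669, 530.5, 499.5 and 423 CPM in gonadal somatic cells, and the signalling adaptor gene Grb10 at 2.13, 1.96, 9.69 and 23.6 CPM in germ-cell-like cells and 114, 90.3, 124 and 134 CPM in gonadal somatic cells. Nnat, a small membrane protein gene, stood at 2.28, 1.08, 4.99 and 6.26 CPM in germ-cell-like cells and 191, 185, 122 and 129 CPM in gonadal somatic cells. Gnas, which encodes a stimulatory G protein subunit, stood at 107, 144, 296 and 158 CPM in germ-cell-like cells and 1271, 924, 703 and 674 CPM in gonadal somatic cells, with its highest germ-cell-like level at E13.5. For 22.0% of the exonic bases of Gnas and 23.1% of those of Mest another gene lies on the opposite strand, and whether counting used the strand is not given in the sources used here.

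Zdbf2, a zinc finger gene, stood higher at each later stage in germ-cell-like cells and above the somatic level from E12.5 on, at 8.98, 12.7, 21.9 and 42.2 CPM in germ-cell-like cells and 14.7, 12.46, 9.17 and 15.1 CPM in gonadal somatic cells. Plagl1, a zinc finger transcription factor gene, peaked in germ-cell-like cells at E13.5, at 5.94, 14.7, 18.5 and 2.90 CPM in germ-cell-like cells and 26.4, 13.3, 31.1 and 34.3 CPM in gonadal somatic cells. Impact, a translation regulator gene, stood at 8.52, 7.73, 7.47 and 3.17 CPM in germ-cell-like cells and 23.2, 21.8, 29.7 and 28.9 CPM in gonadal somatic cells, and Trappc9, a trafficking complex gene, at 9.44, 12.9, 18.5 and 12.96 CPM in germ-cell-like cells and 7.84, 8.04, 5.46 and 6.77 CPM in gonadal somatic cells. Nap1l5 stayed under 1 CPM in each of these sums.

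**Figure D2:**
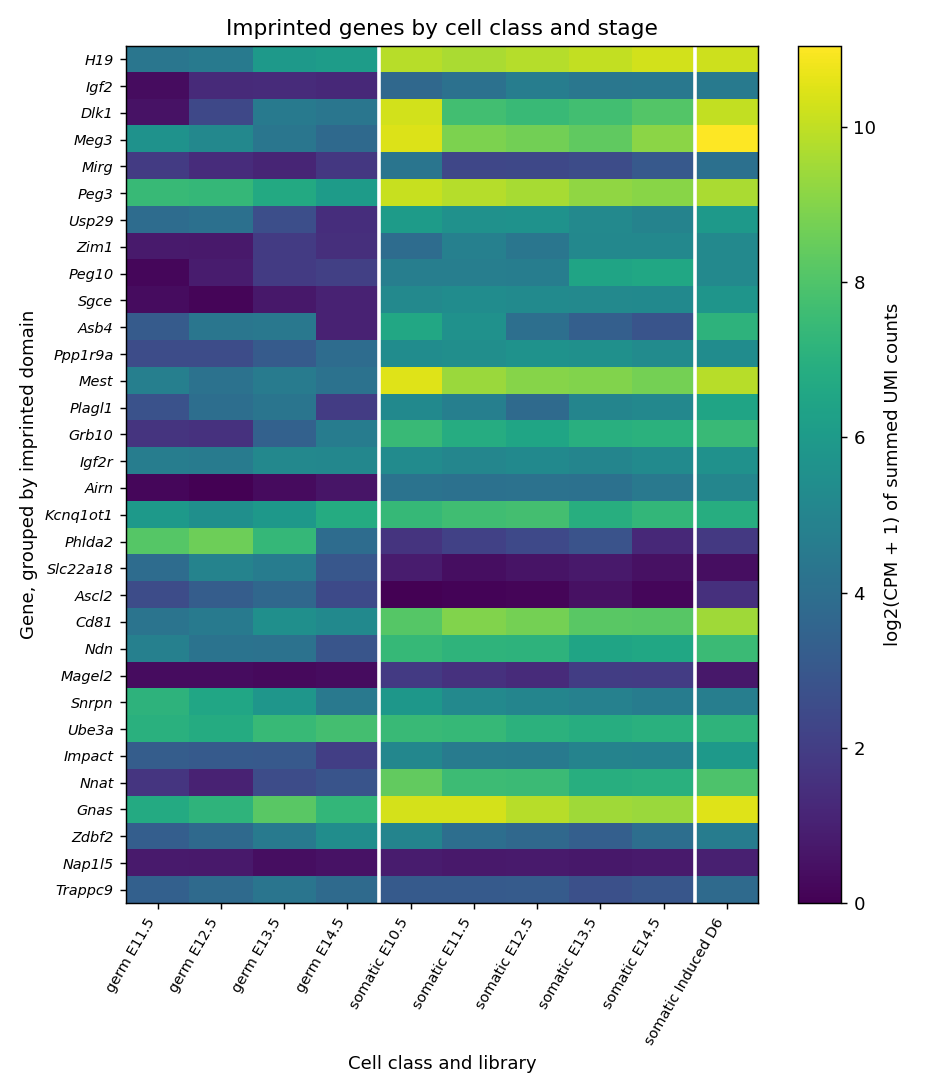
Level of the 32 imprinted genes found, as log2(CPM + 1) of summed UMI counts (colour), by gene (rows, grouped by imprinted domain) and by cell class and library (columns), with white lines between germ-cell-like cells, in vivo gonadal somatic cells and Induced D6. H19, Gnas, Peg3, Mest and Meg3 are bright in each somatic column and dimmer in germ-cell-like cells, and Phlda2 shows the reverse.

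Germ-cell-like and gonadal somatic cells were compared within each library. A gene was counted as higher or lower when its CPM ratio was at least 2-fold, among genes with at least 10 CPM in either sum, and no test is possible with 1 library per stage. At E11.5, 3 of 27 members were higher in germ-cell-like cells (17.3% of 8844 genes were) and 21 were lower (28.3% of genes). At E12.5, 3 of 28 were higher (20.1%) and 19 lower (26.3%). At E13.5, 6 of 29 were higher (29.6%) and 19 lower (21.7%), and at E14.5, 2 of 26 were higher (30.4%) and 19 lower (30.6%). The median log2 ratio of the members was -3.14, -2.83, -2.53 and -3.38 from E11.5 to E14.5, where that of all genes tested was -0.13, -0.01, 0.32 and 0.13. At E13.5, centring on the median of all genes gave 4 members higher and 20 lower, and 1944 genes higher and 2447 lower in place of 2738 and 2007.

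Of the 25 members that passed the minimum at all 4 stages, 18 were lower in germ-cell-like cells at each (16.6% of 7770 genes were): H19, Igf2, Dlk1, Meg3, Peg3, Peg10, Mest, Grb10, Airn, Ndn, Impact, Nnat, Gnas, Sgce, Usp29, Zim1, Cd81 and Ppp1r9a. They include genes read from the maternal copy, such as H19, Meg3 and Grb10, and from the paternal copy, such as Peg3, Mest and Dlk1. At E11.5 the lowest ratio belonged to Dlk1, at 459-fold (157 to 2224) lower on 3 germ counts, followed by Peg10, Sgce and Airn on 1 or 2 counts each. On counts of 14 or more, Nnat was 83.7-fold (50.7 to 149.6) lower, Grb10 53.5-fold (31.8 to 97.9), H19 40.5-fold (34.03 to 48.6) and Cd81 27.1-fold (22.6 to 32.8). At E14.5 Meg3 had the lowest ratio, 44.6-fold (37.7 to 53.1) lower, followed by Airn at 39.4-fold (17.9 to 108) and Sgce at 34.3-fold (19.5 to 66.6). Phlda2 alone among the members was higher at each stage under this rule (9.03% of genes were). Slc22a18 was higher at E11.5 to E13.5, by 42.1-fold (21.9 to 90.6), 58.9-fold (33.2 to 115) and 35.2-fold (22.1 to 59.95), and fell under the 10 CPM minimum at E14.5. Snrpn was higher at E11.5 and E12.5, by 3.96-fold (3.62 to 4.33) and 2.93-fold (2.66 to 3.23). Zdbf2 was higher at E13.5 and E14.5, by 2.38-fold (2.03 to 2.80) and 2.80-fold (2.42 to 3.24), and Ascl2, Trappc9 and Asb4 at E13.5 only under this rule. After centring at E13.5, Zdbf2 and Asb4 were no longer past 2-fold, at log2 ratios of 0.93 and 0.83.

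Free RNA in the droplets was gauged by 12 genes of somatic cells (Wt1, Gata4, Lhx9, Col1a1, Col1a2, Col3a1, Pdgfra, Nr2f2, Tcf21, Fst, Upk3b and Krt19). Set against the somatic level in the same library, their germ-cell-like level was a median of 1.08% (0 to 2.76%), 0.859% (0.472% to 1.94%), 2.84% (1.42% to 6.25%) and 3.03% (1.71% to 4.55%) by stage. Of the members with at least 10 CPM, 8 of 27 at E11.5 (Airn, Dlk1, Grb10, H19, Igf2, Nnat, Peg10 and Sgce), 3 of 28 at E12.5 (Airn, Nnat and Sgce), 7 of 29 at E13.5 (Airn, H19, Meg3, Mest, Nnat, Peg10 and Sgce) and 5 of 26 at E14.5 (Airn, Meg3, Mest, Peg10 and Sgce) lay at or under the highest of these genes. For those members a germ-cell-like level was not detectable above the gauge. How many of all genes lay there was not counted, so these counts cannot be read as particular to imprinted genes. Dlk1 lay under it at E11.5, at 0.218%, and above it at E13.5, at 10.99%. With the median gauge share of the somatic level subtracted from germ-cell-like cells, an alternative chosen after seeing the data, the same members were higher and lower at all 4 stages. The subtraction only reduces the germ-cell-like level, so a member called lower could not lose that call, and this is no check of the lower calls. The 10 endothelial markers summed to 25.0 to 119 CPM in germ-cell-like and 44.2 to 78.4 CPM in gonadal somatic cells from E11.5 on (Induced D6 included), and the 9 erythroid markers to 41.1 to 706 and 0.229 to 1457 CPM. Their part in the results was not tested.

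**Figure D3:**
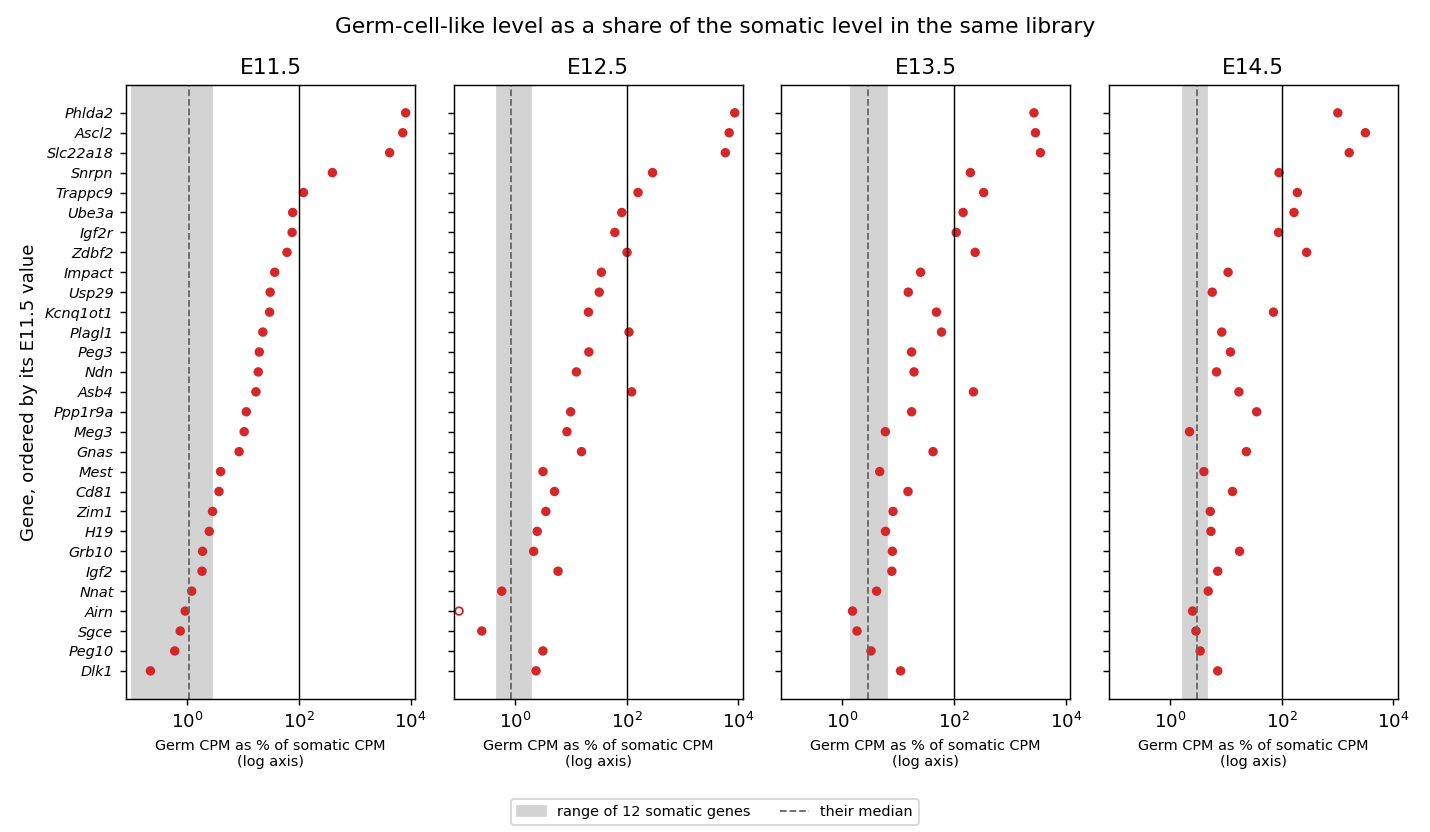
Germ-cell-like level of each member with at least 10 CPM in a germ-cell-like or gonadal somatic sum, as a percentage of its somatic level in the same library (x axis, log scale, a 0 drawn open at the left edge), for E11.5 to E14.5. The grey band is the range of the 12 somatic gauge genes, the dashed line their median and the black line 100%; most members lie left of the black line, and Phlda2, Slc22a18 and Ascl2 lie far to its right.

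Within germ-cell-like cells, E14.5 was compared with E11.5, the first and last stages with enough cells. Of 19 members with at least 10 CPM, 6 were higher at E14.5 (29.5% of 8353 genes were) and 7 lower (25.6%), shares near those of all genes in both directions. The higher members were Dlk1, 42.7-fold (14.4 to 209), Grb10, 11.1-fold (6.47 to 20.5), Zdbf2, 4.70-fold (3.58 to 6.28), H19, 3.49-fold (2.89 to 4.25), Ppp1r9a, 2.90-fold (1.97 to 4.39), and Cd81, 2.06-fold (1.68 to 2.55). At E11.5 the levels of Dlk1, Grb10 and H19 lay at or under the highest gauge gene, so these 3 ratios stand on E11.5 levels not detectable above free RNA. After centring, Cd81 was no longer past 2-fold, at a log2 ratio of 0.98, which left 5 members higher. The lower members were Phlda2, 19.9-fold (16.9 to 23.6), Usp29, 8.22-fold (4.98 to 14.3), Snrpn, 6.61-fold (5.72 to 7.66), Ndn, 4.17-fold (3.16 to 5.57), Meg3, 3.92-fold (3.20 to 4.82), Peg3, 2.68-fold (2.44 to 2.94), and Slc22a18, 2.03-fold (1.48 to 2.78). The Meg3 ratio stands on an E14.5 level at or under the highest gauge gene, not detectable above free RNA. The gauge of free somatic RNA was 1.08% at E11.5 and 3.03% at E14.5 of the somatic level, and 5 of the 6 higher members had somatic levels above their germ-cell-like ones at both stages. Zdbf2 had the lower somatic level at E14.5. The part of depth, 21703 against 9832 UMIs per cell, was not tested. With the gauge subtracted the same 6 members were higher. For Dlk1 this is no check. Its E11.5 level, 0.457 CPM against 209 CPM in gonadal somatic cells, was less than the share subtracted. Nothing was left of it, so the call needed only the 10 CPM minimum at E14.5.

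Stage by stage, the share of all genes that differed in germ-cell-like cells was smallest between E11.5 and E12.5. There 3 of 18 members were higher than at E11.5 (1.62% of genes) and 0 lower (1.51%): Plagl1, 2.47-fold (1.73 to 3.61), Asb4, 2.43-fold (1.79 to 3.37), and Slc22a18, 2.10-fold (1.66 to 2.68). At E13.5, 4 of 20 were higher than at E12.5 (15.3%), namely Dlk1, H19, Gnas and Cd81, and Phlda2 and Usp29 were lower (5.24%). The median gauge of free somatic RNA was 0.859% at E12.5 and 2.84% at E13.5, and H19 lay under the highest gauge gene at E13.5. The gauge was not subtracted in this comparison, so the part of free RNA in the 4 higher members was not tested. At E14.5, Grb10 was the 1 of 21 higher than at E13.5 (11.6%) and 7 were lower (17.8%), led by Asb4, 18.8-fold (10.7 to 36.7), Phlda2, 11.7-fold (9.97 to 13.9), and Plagl1, 6.39-fold (4.45 to 9.48). Neighbouring comparisons share a library, so the E13.5 peak of Plagl1 and Asb4 enters both.

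Gonadal somatic cells held the imprinted genes at a steadier level. Over the 4 later stages, 22 of the 25 members with at least 10 CPM varied under 2-fold between their lowest and highest stage, where 76.4% of 8690 genes did, and in germ-cell-like cells 4 of 22 did, where 36.9% of 8740 genes did. Between E14.5 and E11.5, 1 of 25 members was higher (5.86% of 8600 genes) and 1 lower (12.55%), near or under the share of all genes. Peg10 was 3.67-fold (3.37 to 3.99) higher and Asb4 7.37-fold (6.17 to 8.87) lower. Centring on the median of all genes left both members and gave 717 genes higher and 650 lower in place of 504 and 1079. Step by step, 0 of 25 members were higher and 1 lower at E12.5 than at E11.5 (0.88% and 1.52% of genes), 2 of 25 higher and 0 lower at E13.5 than at E12.5 (3% and 4.06%), and 0 of 24 either way at E14.5 against E13.5 (0.89% and 0.309%). The first was Asb4 and the next were Peg10 and Plagl1. Peg10 stepped up between E12.5 and E13.5 in epithelium, from 26.1 to 94.3 CPM, and in stroma, from 13.8 to 50.5 CPM. These stages fall in the sets of libraries that are numbered apart, so stage and set cannot be told apart for this step.

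Within that sum, Dlk1 moved in opposite directions in different classes. At E14.5 against E11.5, Dlk1 was 2.13-fold (2.02 to 2.25) higher in stroma-like cells and 3.30-fold (2.93 to 3.74) lower in supporting-lineage-like cells. In supporting-lineage-like cells 1 of 24 members was higher and 4 lower (8.26% and 13.4% of genes), with Peg10 the higher one and Dlk1, Peg3, Gnas and Asb4 the lower ones. In coelomic-epithelium-like cells 5 of 25 were higher and 1 lower (11% and 16%), led by Zim1, 4.46-fold (3.42 to 5.87), and H19, 3.09-fold (2.99 to 3.20), with Asb4 again the lower one. In stroma-like cells 2 of 26 were higher and 6 lower (4.38% and 14.7%), the lower ones being Mest, Kcnq1ot1, Snrpn, Nnat, Asb4 and Trappc9. Peg10 was thus on the higher side and Asb4 on the lower side in all 3 classes.

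A larger difference lay between E10.5 and E11.5, in gonadal-epithelium-like cells (supporting-lineage-like and coelomic-epithelium-like together). At E11.5, 8 of 26 members were lower (7.35% of 8420 genes) and 1 higher (11.3%). Dlk1 stood at 1266 CPM at E10.5 and 186 at E11.5, 6.80-fold (6.52 to 7.08) lower. Meg3 stood at 1409 and 300.4 CPM, and Mirg at 18.6 and 3.77 CPM, so that all 3 counted members of the domain moved the same way. Mest was 2.75-fold (2.66 to 2.84) lower, Asb4 3.07-fold (2.70 to 3.49) and Plagl1 3.42-fold (2.76 to 4.21). Nnat and Zdbf2 were lower by 2.12-fold (1.99 to 2.26) and 2.10-fold (1.69 to 2.61), and Zim1 was 2.04-fold (1.54 to 2.76) higher. The E10.5 value comes from 1 cluster, in which 500 of the 5946 cells of the library fell, and the make-up of the epithelium differed between the stages.

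Stroma-like and epithelium-like cells of the same libraries also differed. Plagl1 and Meg3 were higher in stroma at all 4 later stages, Plagl1 by 7.10-, 5.31-, 2.68- and 3.12-fold and Meg3 by 3.45-, 3.08-, 2.48- and 3.47-fold. Dlk1 was higher in stroma at E12.5 to E14.5, by up to 5.30-fold (5.00 to 5.61) at E14.5, when stroma held 610.2 CPM and epithelium 115. The epithelium sum mixes unlike levels. From E12.5 to E14.5 supporting-lineage-like cells held 60.2, 42.8 and 39.0 CPM of Dlk1, and coelomic-epithelium-like cells 280, 1428 and 212 CPM. Stroma held 345 and 392 CPM at E12.5 and E13.5, so at E13.5 it lay under the coelomic-epithelium-like level. That level comes from 117 cells with 266 CPM of Tcf21, where the class held 80.3 at E12.5 and 22.6 at E14.5. Another 385 epithelium-like cells at E13.5, named for the supporting and coelomic types at once, held 269 CPM of Dlk1. The coelomic-epithelium-like class was thus not alike in make-up over these stages. Ppp1r9a was lower in stroma at each of these stages, by 2.77- to 3.54-fold. In all, 6, 3, 4 and 6 members were higher in stroma at these stages (8.01%, 8.32%, 8.35% and 8.58% of genes) and 2, 2, 3 and 5 were lower (7.41%, 7.38%, 10.1% and 11.1%). In Induced D6, 1 of 27 members was higher in stroma, Plagl1, and 2 lower, Peg10 and Ppp1r9a (7.9% and 5.42% of genes). The whole somatic sum thus mixes classes with different levels of these members.

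Induced D6 gonadal somatic cells were compared with those of the embryo at the stages when the gonad forms. Against E11.5, 6 of 27 members were higher in Induced D6 (7.47% of 8600 genes) and 0 lower (4.1%). Against E12.5 the counts were also 6 of 27 (12.6% of 8544 genes) and 0 (4.23%), with the same Induced D6 library in both. The 6 members were the same against both stages: Dlk1, Meg3, Mirg, Plagl1, Asb4 and Impact. The other 21 members with at least 10 CPM lay within 2-fold of the embryo at both stages, among them H19 at 1168 CPM, Igf2 at 22.0, Peg3 at 796, Kcnq1ot1 at 118, Snrpn at 25.1, Igf2r at 46.8 and Airn at 32.2. The median log2 ratio of the members was 0.50 against E11.5 and 0.67 against E12.5, with 0.09 and 0.26 over all genes tested. Centring on that median against E12.5 left the 6 members, added 1 lower one, Kcnq1ot1, and gave 686 genes higher and 567 lower in place of 1079 and 361.

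Dlk1 stood at 1036 CPM in Induced D6 and at 209, 176, 207 and 272 CPM in the embryo (E11.5 first), 4.95-fold (4.82 to 5.09) above E11.5. Meg3, read from the other parental copy of the same domain, stood at 2110.5 CPM against 470.2, 410.0, 326 and 558, 4.49-fold (4.41 to 4.57) above E11.5. Mirg, further along, stood at 15.9 CPM against 4.17, 4.33, 4.93 and 7.58, 3.80-fold (3.13 to 4.66) above E11.5. In these whole sums all 3 lay above each of the 4 embryonic stages. Both the paternally read Dlk1 and the maternally read Meg3 and Mirg were on the high side. By class, 1 exception was the 117 coelomic-epithelium-like cells at E13.5, which held 1428 CPM of Dlk1, against 1375 CPM in that class of Induced D6. These 117 cells also held 266 CPM of Tcf21, where stroma-like cells of that library held 322. Another 385 cells at E13.5, named for the supporting and coelomic types at once, held 269 CPM of Dlk1. The part of cluster make-up in the exception was not tested. After thinning, 91.7% of Induced D6 somatic cells held a Meg3 UMI and 79.5% a Dlk1 UMI (95.9% and 88.0% unthinned), against 56.2% and 35.3% at E11.5 and 90.5% and 93.1% in the E10.5 epithelium. In erythroid-like cells the thinned shares were 1.30% for Meg3 and 0% for Dlk1 at E11.5, and 7.02% and 7.89% at E10.5. No such class was found in Induced D6, so its shares have no background of their own and are given as a description. Dlk1 ran from 195 to 1576 CPM over its 9 clusters in Induced D6 and from 65.4 to 1043 CPM over its 11 clusters at E11.5. Meg3 ran from 501 to 3843 CPM over its 9 clusters in Induced D6 and from 138 to 1593 CPM over its 11 clusters at E11.5.

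Asb4 stood at 141 CPM in Induced D6 against 46.8, 15.6, 9.21 and 6.34, 3.02-fold (2.85 to 3.21) above E11.5 and 9.05-fold (8.14 to 10.1) above E12.5. Plagl1 stood at 85.1 CPM against 26.4, 13.3, 31.1 and 34.3, 3.23-fold (2.98 to 3.49) and 6.42-fold (5.72 to 7.24) above those stages. Impact stood at 62.1 CPM against 23.2, 21.8, 29.7 and 28.9, 2.67-fold (2.45 to 2.92) and 2.85-fold (2.59 to 3.14). Each was thus above its 4 in vivo values. The 8 pluripotency markers summed to 12.6 CPM in these Induced D6 cells and to 48.0 CPM in gonadal somatic cells at E11.5. Against E13.5 and E14.5, 12 and 10 of 27 members were higher (18.1% and 16.2% of genes) and Peg10 was the 1 lower (5.49% and 6.14%). Ascl2, under the 10 CPM minimum, stood at 1.86 CPM on 65 counts in Induced D6 and at 0 to 0.417 CPM in the gonadal somatic cells of the embryo.

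The difference was also present class by class. In supporting-lineage-like cells 6 of 26 members were higher than at E11.5 (8.29% of genes), in coelomic-epithelium-like cells 10 of 27 (7.78%) and in stroma-like cells 5 of 27 (8.94%), with 0 lower in each (5.51%, 3.57% and 4.88%). Against E12.5, 7 of 26, 8 of 27 and 7 of 27 were higher in these classes and 0, 0 and 1 lower (11.8% and 4.94%, 12.6% and 3.5%, and 14.4% and 4.16% of genes), the lower one being Kcnq1ot1 in stroma. Against E11.5, Dlk1 was higher by 2.41-fold (2.26 to 2.56), 5.03-fold (4.83 to 5.25) and 3.30-fold (3.15 to 3.47) in these 3 classes, and Meg3 by 4.19-fold (3.99 to 4.40), 4.55-fold (4.41 to 4.69) and 2.68-fold (2.61 to 2.75). Impact was higher by 2.58-fold (2.18 to 3.05), 2.64-fold (2.27 to 3.09) and 2.26-fold (1.95 to 2.63). Asb4 was higher in the first 2 classes, by 2.59-fold (2.08 to 3.24) and 3.47-fold (3.18 to 3.80), and stood at 89.4 CPM against 97.7 in stroma. Plagl1 was higher in stroma than in epithelium in Induced D6 too, with 215 CPM there and 27.7 in epithelium. In Induced D6 the epithelium-like and stroma-like Dlk1 levels were 1077 and 946 CPM. These classes are rebuilt from markers, and the clusters that hold them are not the same in culture and embryo.

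**Figure D4:**
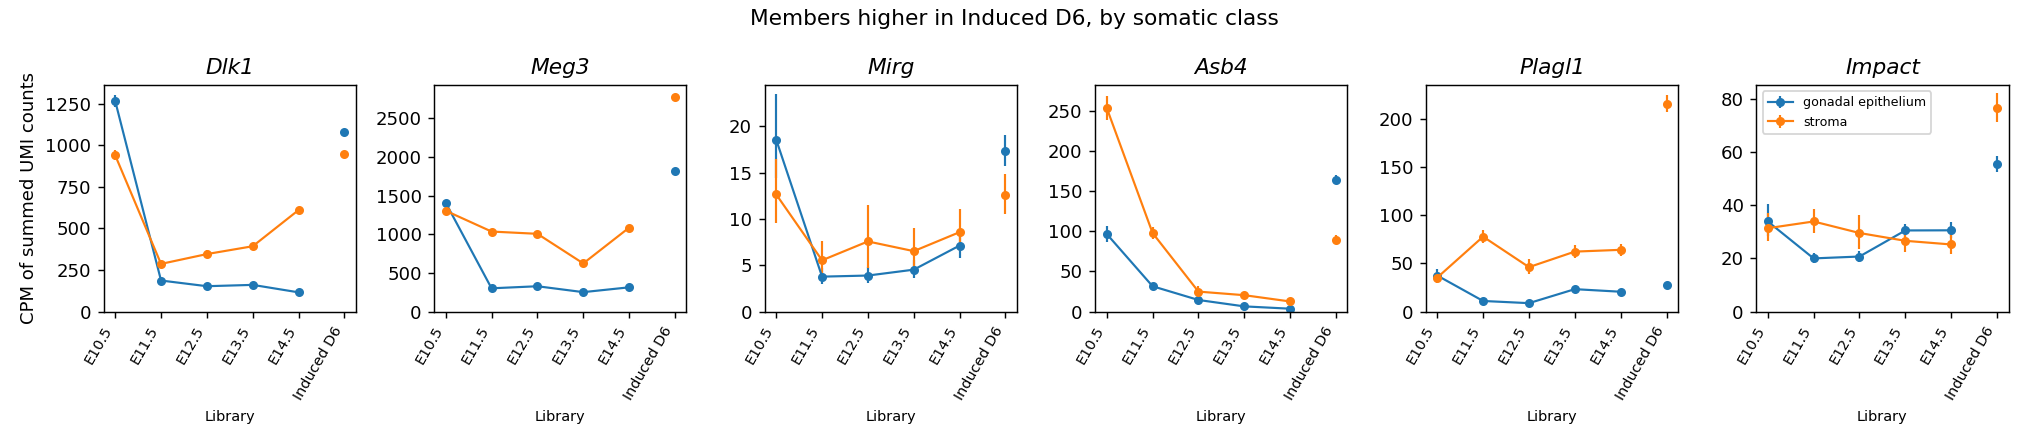
Level (CPM of summed UMI counts, y axis, from 0) of the 6 imprinted genes higher in Induced D6, by library (x axis), in gonadal-epithelium-like (blue) and stroma-like (orange) cells, with bars for the exact Poisson 95% interval and Induced D6 as unjoined points. Dlk1, Meg3 and Mirg in Induced D6 epithelium lie above those of E11.5 to E14.5 and within 1.29-fold of E10.5; stroma-like cells at E10.5 are drawn but were not part of the gonadal somatic sum.

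Against the E10.5 epithelium, 3 of 27 members differed by 2-fold or more. In epithelium-like cells 2 of 27 were higher in Induced D6 (16% of 8597 genes), Zim1, 2.66-fold (2.01 to 3.57), and Cd81, 2.16-fold (2.03 to 2.30), and 1 was lower (9.31%), Snrpn, 2.58-fold (2.19 to 3.04). Dlk1 stood at 1077 CPM in Induced D6 epithelium and 1266 at E10.5, Meg3 at 1818 and 1409, Mirg at 17.3 and 18.6, and Mest at 929.7 and 1449. The ratios of the first 3 were 0.8503-fold (0.824 to 0.877), 1.29-fold (1.25 to 1.33) and 0.934-fold (0.724 to 1.22). The median log2 ratio of the members was 0.06, and that of all genes 0.08. This comparison was added after the levels by stage had been seen, and it shares its libraries with the comparisons above.

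A list of 40 other imprinted genes found in the files gives the setting. In germ-cell-like against gonadal somatic cells, 4 of 20 were higher and 8 lower at E11.5 (17.3% and 28.3% of all genes), and 3 of 18 were higher and 9 lower at E14.5 (30.4% and 30.6%). Atp10a, a lipid flippase gene, stood at 16.9 and 0.202 CPM in germ-cell-like and somatic cells at E11.5, and Cdkn1c, a cell cycle inhibitor gene of the Kcnq1ot1 domain, at 36.8 and 1629.8 CPM. So Phlda2, Slc22a18 and Ascl2 were raised in germ-cell-like cells while Cdkn1c, Cd81 and Kcnq1ot1 of the same domain were low. Between Induced D6 and E11.5 somatic cells, 1 of 18 was higher, the matrix protein gene Dcn, and 3 were lower (7.47% and 4.1% of all genes). The lowest was Xist, the RNA of the silenced X chromosome, at 75.7 CPM in Induced D6 and 979 at E11.5. The embryo libraries are titled XX, while the title of Induced D6 names no sex chromosomes, and their part in the Xist level was not tested. The amino acid transporter gene Slc38a4 followed, at 7.28 CPM in Induced D6 and 43.4 CPM at E11.5, and then Zrsr1 at 6.10 and 14.98 CPM.

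Of 16 genes that set, keep or erase imprints, 14 had at least 10 CPM at E11.5. In germ-cell-like cells 3 were higher and 6 lower than in somatic cells (17.3% and 28.3% of all genes). The higher ones were Dppa3, which guards maternal marks in the zygote, at 1179 and 1.41 CPM, Tet1, which oxidises methylated DNA, at 86.3 and 16.8 CPM, and the maintenance methylase Dnmt1 at 137 and 43.0 CPM. Dppa3 is also among the germ cell genes summed above to describe this class, so its excess there is no separate result. The 6 lower ones included Zfp57, at 1.22 and 25.9 CPM, Tet3, at 0.609 and 29.1 CPM, and Uhrf1, which brings DNMT1 to DNA, at 8.98 and 47.2 CPM. Across the germ-cell-like stages Tet1 stood at 86.3, 94.3, 54.6 and 6.71 CPM, and Dppa3 at 1179, 1178, 549 and 48.6 CPM. In Induced D6 against E11.5, 2 of 14 were higher, Tet2 and Tet1, and 1 lower, the new-methylation enzyme Dnmt3b (7.47% and 4.1% of all genes), and Zfp57 stood at 38.6 CPM against 25.9.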

How the data were processed

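The deposited values are whole-number UMI counts per gene and cell that the authors made with Cell Ranger 3.0.2 on mm10, per the submitters' processing notes; the sources used here do not give strand use or filters. The 6 libraries, 1 per group, held 37606947 to 52146419 UMIs in 2766 to 7564 barcodes. Barcodes needed 500 or more genes detected and no more than 10% of UMIs from mitochondrial genes, and Scrublet scores removed 59 to 452 doublets per library at an expected rate of 0.8% per 1000 cells, since its automatic threshold marked 0.0160% at E10.5.

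Each library was clustered with scanpy 1.11.5 (2000 variable genes without imprinted genes, 30 components, Leiden resolution 1). A cluster took its name from at least 3 of the markers of 19 sets (1.5-fold over the rest, in at least 10% of cells); these limits were chosen with the data in view. The imprinted genes and all lists were chosen with earlier results of these data known.

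Counts were summed per class and library and expressed as CPM with exact Poisson 95% intervals. Ratios carry exact conditional binomial 95% intervals. A gene at least 2-fold apart was called among genes with at least 10 CPM in either sum, and no p-value was computed. Values are named for all members found, and in each comparison up to 10 members per direction with the largest ratios. Shares use cells thinned to 3000 UMIs, which left out 12 of 311 germ-cell-like and 22 of 2162 gonadal somatic cells at E11.5. Calls and intervals were run on simulated Poisson counts, the model the intervals assume, with no spread between libraries. That run covers counting error only and is no check on differences between libraries. Gene positions are from GENCODE vM21 and start regions from RefSeq, both GRCm38. The 11 alternatives planned and 3 added after seeing the data are compared in the closing section.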

Additional observations from a re-analysis of the deposited data

How the results depend on the processing

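The alternatives were run for the 8 comparisons of whole germ-cell-like or gonadal somatic sums, not for those by class, by neighbouring stage or with E10.5. Of 206 counts of members, 196 stayed within 1.5 times the main count and 10 did not. Of the ratios of single members, 1232 stayed within their counting interval, 272 moved beyond it and 0 reversed. Without a minimum CPM, germ-cell-like cells at E14.5 had 4 members higher than somatic cells (2 in the main analysis), and 12 were higher at E14.5 than at E11.5 (main 6). The somatic E14.5 to E11.5 comparison then had 2 higher and 2 lower (main 1 and 1), and Induced D6 had 1 lower against E11.5 and 1 against E12.5 (main 0 for both). With at least 20 CPM, 1 member was higher in germ-cell-like cells at E14.5. Leaving out mitochondrial, ribosomal protein and haemoglobin genes gave 2 higher members in somatic cells at E14.5 and 1 lower in Induced D6 against E12.5, as did centring on the median for the latter (1). The cause was not tested. The counts of members lower in germ-cell-like cells ran from 19 to 22, 17 to 21, 17 to 21 and 19 to 22 from E11.5 to E14.5, and those higher in Induced D6 from 5 to 7 against both stages, of which 5 or more were always the main ones. Among the alternatives, calls over all genes were counted for centring only. The other counts of members thus have no share of all genes beside them and cannot be set against it. The added alternatives were chosen after seeing the data.

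No paired analysis was possible because the labels give each group a single library, replicate 1. Leaving out a library was not run, since it would empty its group, and differences between embryos, batches or cultures of 1 group were not measured. Members under 10 CPM, such as Magel2 and Nap1l5, and germ-cell-like levels under the gauge of free RNA are limited by depth.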

Other observations

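Endothelium-like cells of the embryo libraries (174 cells at E10.5 and 52 at E11.5) held several of the same genes at high levels. From E10.5 to E14.5 Mest stood there at 2491, 3583, 2367, 2104 and 1300.3 CPM, H19 at 1096, 2337, 2212, 1996 and 1968 CPM and Gnas at 1747, 3303, 2685, 1704 and 1046 CPM. Wt1, a gonadal somatic gene, stood at 0.851, 12.4, 15.5, 145 and 303 CPM in the same class (345 CPM in gonadal somatic cells at E14.5), so the E13.5 and E14.5 sums hold somatic RNA as well, and its part in the values was not tested. In erythroid-like cells H19 stood at 497, 258, 79.7, 98.9 and 158 CPM.

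The 18 germ-cell-like cells at E10.5 entered no comparison. Phlda2 stood there at 211 CPM, Meg3 at 41.3 CPM, and Dlk1 had 0 counts, which allows up to 13.8 CPM (3 counts).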
